A study of Caenorhabditis elegans with 8 samples.

Results

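The ERGO-1 pathway is an endogenous branch of RNA interference in Caenorhabditis elegans, and 10 of its listed target genes are described here by the small RNAs counted against them. The 10 genes are K02E2.6, T08B6.2, Y17D7B.4, W05H12.2, K06B9.6, H09G03.1, C36A4.11, F39E9.7, F52D2.6 and C18D4.6, out of 1937 genes in the deposited count table. Each is listed as a target of the pathway and has no other listed target on its genomic clone, the stretch of DNA named by the letters and digits before the point in the gene ID. All 10 were found in the table and all 10 passed the filter on low counts. They were chosen by their place on a target list and by measured values of the same libraries, among them the high count and strong loss at K02E2.6 and the absence of a loss at C18D4.6. Their levels and changes between genotypes are therefore given as a description. Counts of members past the threshold of the fit over all genes are also a description, and no p is given for a single member.

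The animals were rde-12(hj41) mutants, set against N2, the standard wild-type strain, with 2 libraries each. RDE-12 is a DEAD-box helicase, a protein of a family that remodels RNA, and it acts in RNA interference. Worms of both genotypes were grown from synchronised first-stage larvae on OP50, the usual laboratory Escherichia coli food, for 50 h at 20 °C, and were collected whole as young adults. Per the labels, a gel slice of 20 to 26 nt gave the small RNA, and TAP treatment made molecules with a 5′ triphosphate open to adapter ligation. The series holds 8 libraries in all, and the other 4, from worms fed a sel-1 trigger, have no counts for these genes in the data used here. The labels call the 2 libraries of a condition biological samples, and each was made from a large pool of worms, so the spread given is between pools. Nothing in the labels says how many independent mutant lines were used, and the allele stands alone for the loss of RDE-12.

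In this pathway, a primary small RNA made with the help of an RNA-dependent RNA polymerase and Dicer is loaded onto the Argonaute protein ERGO-1. The target transcript is then copied by further polymerases into many secondary small RNAs with a 5′ triphosphate, which other Argonautes carry, some of them into the nucleus. Targets are often recently duplicated genes, pseudogenes and other loci of little known function. The count table does not separate primary from secondary small RNAs.

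The table's counts summed to 5563151 and 4354715 in the rde-12 libraries and to 4270098 and 4382256 in the N2 libraries. These totals cover a selection of genes made before deposit and are not whole-library depths. Levels are given as CPM, which are counts relative to the table's total after scaling with TMM factors, and changes as log2 differences with their standard errors (SE) from edgeR's quasi-likelihood fit over all 1931 genes tested. A gene was called changed at a Benjamini-Hochberg adjusted p under 0.05, and 268 genes were called lower and 267 higher in rde-12. Scaling to library totals gave 221 lower and 333 higher, and upper-quartile factors gave 202 lower and 370 higher. The median log2 change of all genes was −0.02.

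Small RNAs against 9 of the 10 genes were lower in rde-12 than in N2, and those against C18D4.6 were not. The loss ran from 2.25-fold at the non-coding RNA gene H09G03.1 to 42.4-fold at the pseudogene T08B6.2. The call in the lower direction was made for 9 genes, against a background of 13.9% of all genes tested, and in the higher direction for 0, against 13.8%. DESeq2 also called 9 lower and 0 higher, against 8.11% and 10.7% of all genes. At an unadjusted p under 0.05 edgeR gave 9 lower and 0 higher, against 20.2% and 19.4%. More than 4-fold losses were measured in 5 of the 10, where 1.81% of all genes had such a called loss. The median log2 change of the 10 was −1.999, but the genes were chosen with this comparison known, so neither the counts nor the median adds support. In whole animals, fewer cells making a small RNA and less of it per cell cannot be told apart.

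T08B6.2 is annotated as a pseudogene and lost the largest part of its small RNAs. It had 60 and 54 counts in the rde-12 libraries, against 2134 and 2033 in the N2 libraries. Its level was 10.9 and 12.1 CPM in rde-12 and 507 and 466 CPM in N2. The rde-12 libraries kept 2.36% of the N2 level, with a log2 change of −5.41 ± 0.0975 (SE), and among the 1931 genes only 1 had a more negative change, which puts T08B6.2 in place 2. Exact Poisson 95% intervals ran from 45.8 to 77.2 and from 40.6 to 70.5 for the rde-12 counts, and they cover counting error only.

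K02E2.6, annotated as protein-coding, was picked as a strongly targeted gene. The rde-12 libraries held 269.9 and 246.4 CPM, against 4915 and 4698 CPM in the N2 libraries. Both mutant libraries thus lay far below both wild-type libraries, 18.6-fold in the mean, and kept 5.37% of the N2 level (log2 change −4.22 ± 0.0706, SE). Y17D7B.4, a protein-coding gene annotated with a single exon, had 256 and 244 CPM in rde-12 and 4119 and 3863 CPM in N2. It kept 6.26% of the N2 level, close to K02E2.6, with a log2 change of −3.996 ± 0.0681 (SE). These 2 genes and T08B6.2 were the only members among the 10 genes of the table with the most negative log2 change.

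The next 4 genes kept between 19.9% and 29.7% of their small RNAs. F39E9.7, annotated as a pseudogene, had 618 and 561 CPM in rde-12 and 3046 and 2883 CPM in N2, a log2 change of −2.33 ± 0.0650 (SE). C36A4.11, annotated as protein-coding, had 730 and 669 CPM in rde-12 and 3029 and 2890 CPM in N2, a log2 change of −2.08 ± 0.0630. In both genes the rde-12 libraries lay well below the N2 libraries. K06B9.6, annotated as protein-coding, had 1515 and 1379 CPM in rde-12 and 5519 and 5424 CPM in N2, so that it kept 26.4% (log2 change −1.92 ± 0.0635). W05H12.2, annotated as a pseudogene, had 180 and 155 CPM in rde-12 and 557 and 573 CPM in N2, and kept 29.7% (log2 change −1.75 ± 0.0705).

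The smallest losses were at F52D2.6 and H09G03.1. F52D2.6, annotated as protein-coding, had 270 and 244 counts in rde-12 and 552 and 559 counts in N2. These correspond to 49.0 and 54.5 CPM in rde-12 and to 131 and 128 CPM in N2, so that 39.95% of the N2 level was left (log2 change −1.33 ± 0.0920, SE). H09G03.1, annotated as a long intergenic non-coding RNA, had 730 and 684 CPM in rde-12 and 1606 and 1579 CPM in N2. It kept 44.4% (log2 change −1.17 ± 0.0578), and its genotypes did not overlap either.

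C18D4.6, annotated as protein-coding, stood apart from the other 9. It had 1047 and 1040 CPM in rde-12 and 1034 and 970 CPM in N2, so that rde-12 held 104% of the N2 level. The log2 change was 0.06 ± 0.0567 (SE), close to the median of all genes. The rde-12 libraries lay just above the N2 libraries without overlap, as the libraries of the 2 genotypes did for all 10 genes and for 64.2% of all genes tested. The gap between the nearest libraries of C18D4.6 was smaller than the spread between its N2 replicates.

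**Figure D1:**
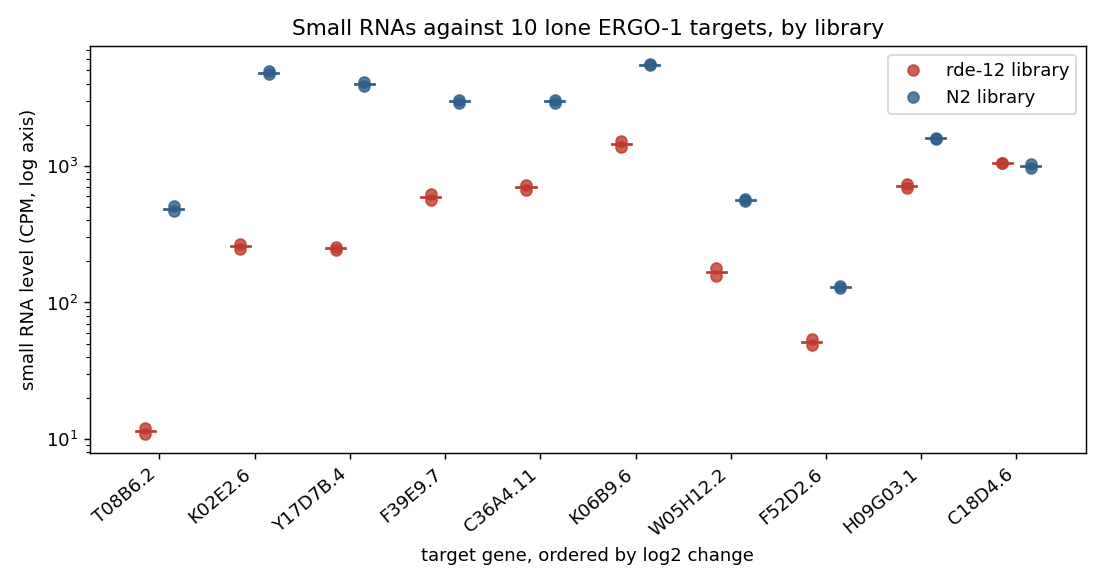
Small RNA level (CPM, log axis) of each of the 10 genes in each library, rde-12 in red on the left and N2 in blue on the right of each pair, with a short line at the mean of 2 libraries. The genes run from T08B6.2, with 11.5 CPM in rde-12 and 486 CPM in N2, to C18D4.6, with 1044 CPM in rde-12 and 1002 CPM in N2.

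Replicates lay close together compared with the losses. The coefficient of variation of the 2 libraries ran from 0.434% at C18D4.6 to 10.3% at W05H12.2 in rde-12, and from 1.22% at H09G03.1 to 5.92% at T08B6.2 in N2. In rde-12 the median ratio of replicate 1 to replicate 2 was 1.08, where the median over all genes was 1.011. Of the 10 genes, 8 had the higher CPM in replicate 1, as did 1074 of all 1931 genes tested. The exceptions were T08B6.2 at 0.903 and F52D2.6 at 0.899, the members with the fewest counts in rde-12. In N2, 9 of the 10 were higher in replicate 1, as were 899 of the 1931. The median ratio was 1.047 for the 10 and 0.993 over all genes. The ratios ran from 0.899 to 1.16 in rde-12 and from 0.972 to 1.09 in N2. What part these differences between replicates have in the changes above was not tested.

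The 10 genes together held 0.535% and 0.519% of all table counts in the rde-12 libraries, against 2.41% and 2.34% in the N2 libraries. The mean share was 0.527% ± 0.0118 (SD, n = 2) in rde-12 and 2.375% ± 0.0537 (SD, n = 2) in N2, 4.51-fold lower in rde-12. The make-up of this share also differed. K02E2.6 supplied 4.94% ± 0.0778 of the members' counts in rde-12 and 20.05% ± 0.0550 in N2. Y17D7B.4 supplied 4.78% ± 0.0675 in rde-12 and 16.65% ± 0.269 in N2. C18D4.6 moved the other way, with 19.99% ± 0.888 in rde-12 and 4.18% ± 0.0689 in N2, without a called change in its own level. K06B9.6 was the largest contributor in both genotypes, with 27.7% ± 0.485 in rde-12 and 22.8% ± 0.386 in N2.

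**Figure D2:**
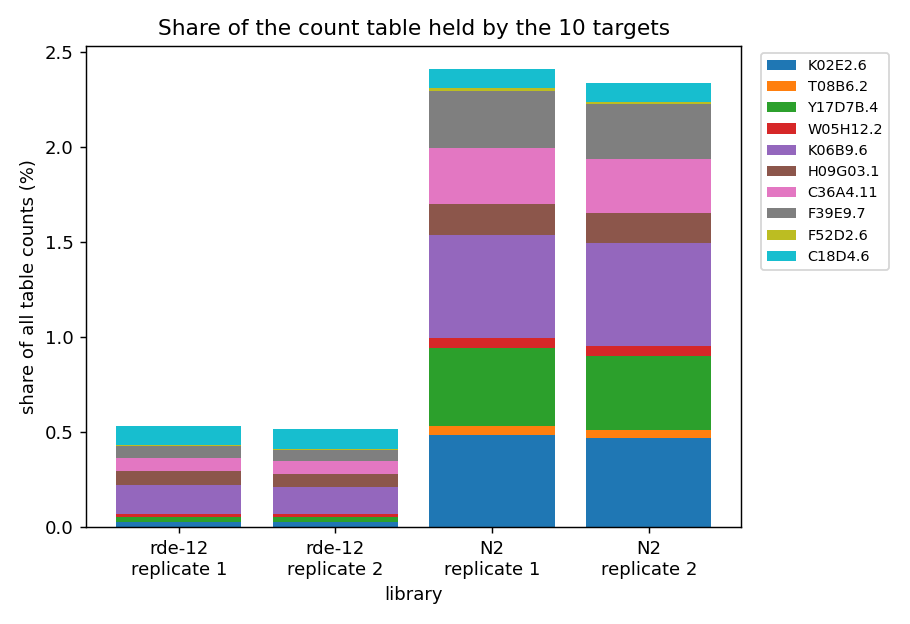
Share of all counts in the table (%, from 0) held by the 10 genes in each library, stacked by gene, with the rde-12 libraries on the left and the N2 libraries on the right. The stacks reach 0.535% and 0.519% in rde-12 and 2.41% and 2.34% in N2, and the band of C18D4.6 keeps nearly its width while those of K02E2.6 and Y17D7B.4 shrink.

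Levels of different genes were compared per exonic kilobase, since a longer transcript offers more template. The lengths were taken from the Ensembl annotation of assembly WBcel235, and since no source used here names the build of the counts, no positions are printed. The length of a gene covers every base in an exon of any of its transcripts. K02E2.6, T08B6.2 and C18D4.6 have several transcripts, so their levels per length and places in the order can depend on this choice. In N2, Y17D7B.4 led with 9154 and 8585 CPM per exonic kilobase in its 2 libraries, and K06B9.6 had 8651 and 8502, so that they overlapped. C36A4.11 (4836 CPM per exonic kilobase), K02E2.6 (4342), F39E9.7 (3921), H09G03.1 (3277), W05H12.2 (1105), C18D4.6 (699), T08B6.2 (513) and F52D2.6 (233) followed, and no further neighbours in this order overlapped. Per length the N2 levels of the 10 genes thus spanned from 233 to 8870, around a median of 3599 where the median of all genes was 93.97. Y17D7B.4 and K06B9.6 stood in places 8 and 10 among all annotated genes of the table, and F52D2.6 in place 513.

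In rde-12 the order was different and no neighbours in it overlapped. K06B9.6 led at 2268 ± 150 CPM per exonic kilobase, followed by H09G03.1 at 1455 ± 68.0 and C36A4.11 at 1143 ± 70.6. F39E9.7 (779.8 CPM per exonic kilobase), C18D4.6 (728), Y17D7B.4 (555), W05H12.2 (328), K02E2.6 (233), F52D2.6 (92.9) and T08B6.2 (12.1) came after. Y17D7B.4 stood in place 6 in rde-12 and in place 1 in N2, and K02E2.6 stood in place 8 in rde-12 and in place 4 in N2. C18D4.6 stood in place 5 in rde-12 and in place 8 in N2 at nearly the same level. The median of the 10 in rde-12 was 642 CPM per exonic kilobase, still above the 87.9 of all genes.

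**Figure D3:**
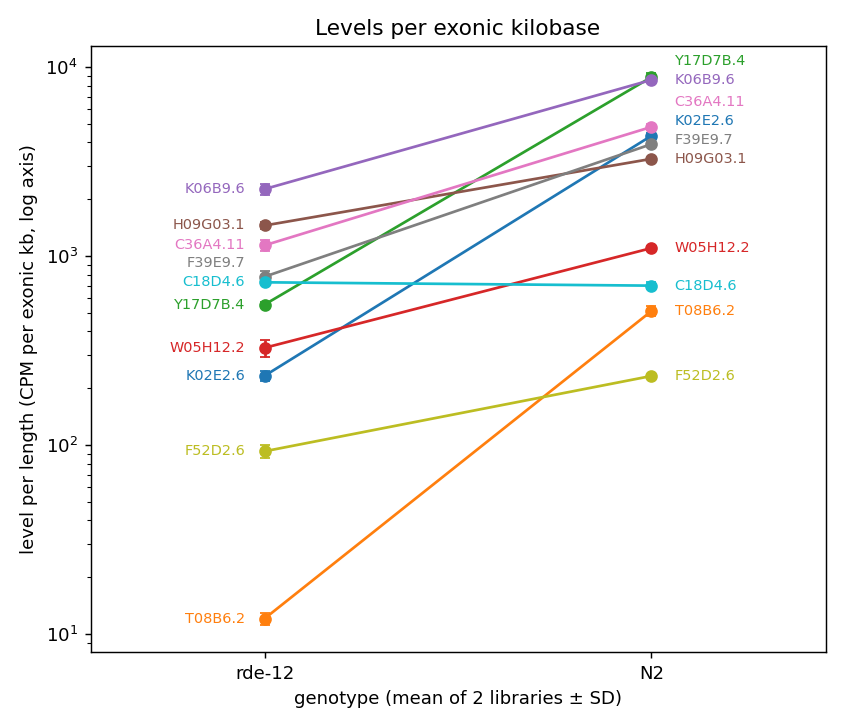
Level per exonic kilobase (CPM per kb, log axis) of each gene in rde-12 on the left and N2 on the right, as mean ± SD of 2 libraries joined by a line. The line of T08B6.2 is the steepest, at 12.1 in rde-12 against 513 in N2, that of C18D4.6 is nearly level, and lines cross where the order of the genes differs.

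The size of the loss was set beside the level per length and the length. Across the 10 genes, Spearman's rho between the N2 level per exonic kilobase and the log2 change was −0.333 (Pearson's r of the log2 level −0.178). Between the exonic length and the log2 change, rho was −0.164 (r of the log2 length −0.0455). These are descriptions over 10 genes that share the same libraries. The N2 level is also part of the log2 change, and some members were chosen by their level or change. Nothing is therefore read from these correlations. Genes with nearly equal N2 levels per length kept different parts: Y17D7B.4 and K06B9.6, whose N2 libraries overlapped, kept 6.26% and 26.4% of the N2 level in rde-12. Likewise K02E2.6 and C36A4.11, at 4342 and 4836 CPM per exonic kilobase in N2, kept 5.37% and 23.6%.

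Outside the small RNA counts, most but not all of the genes have a short annotation. Of the 10, 6 are annotated as protein-coding, 3 as pseudogenes (T08B6.2, W05H12.2 and F39E9.7) and 1 as a long intergenic non-coding RNA (H09G03.1). Pseudogenes made up 4.48% of the 1896 tested genes that matched the annotation, and 4 of 8 other listed ERGO-1 targets, described further on. The exonic length ran from 450 bases at Y17D7B.4 to 1433 bases at C18D4.6, with a median of 625 bases against 1410 over all genes, and 8 of the 10 were under 1000 bases, as were 28.96% of all genes and 6 of the 8 other listed targets. At most 2 exons are annotated for 5 of the 10, for 9.55% of all genes and for 1 of the 8. The other 5 members have up to 3 exons (K02E2.6 and F39E9.7), 4 (H09G03.1), 5 (C18D4.6) or 9 (T08B6.2). The genes lie on chromosomes I (W05H12.2), II (F39E9.7), III (H09G03.1 and C36A4.11), IV (T08B6.2 and K06B9.6), V (K02E2.6, Y17D7B.4 and C18D4.6) and X (F52D2.6). Log2 changes ran from −5.41 to −1.75 among the 3 pseudogenes and from −4.22 to 0.06 among the 6 protein-coding genes. Over all tested genes, 21 of 85 pseudogenes were called lower and 17 higher. Of 1803 protein-coding genes, 238 were called lower and 247 higher. Whether the annotated class bears on the loss was not tested.

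K06B9.6 and C36A4.11 resemble each other in ways noticed after the values were seen. Each has 2 exons, the second of 106 bases in both, and first exons of 532 bases in K06B9.6 and 506 bases in C36A4.11. Each also stands directly beside a gene of the cyp-25A group of cytochrome P450 enzymes, which oxidise many small molecules: cyp-25A6 beside K06B9.6 and cyp-25A3 beside C36A4.11, although they lie on different chromosomes. None of the other 8 members has a cyp-25A gene within 2 genes on either side. Small RNAs against the pair kept 26.4% and 23.6% of the N2 level. Their sequences were not compared here, and no source used here says how reads matching more than 1 gene were assigned, so their separate values are uncertain if the genes share sequence.

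Annotated overlaps bear on which transcript a count belongs to, because no source used here names the strand counted. T08B6.2 overlaps 9 annotated piRNA genes on the opposite strand, which encode small RNAs carried by the germline Argonaute PRG-1. F39E9.7 overlaps the microRNA gene mir-260 and 5 other non-coding RNA genes on the opposite strand. W05H12.2 overlaps the protein-coding gene W05H12.4, and K02E2.6 a non-coding RNA gene, K02E2.12, also on the opposite strand. The remaining 6 members overlap no other annotated gene. With an overlap, log2 changes were −5.41 at T08B6.2, −4.22 at K02E2.6, −2.33 at F39E9.7 and −1.75 at W05H12.2. Without one, they ran from −3.996 at Y17D7B.4 to 0.06 at C18D4.6. Whether an overlap bears on the loss was not tested, nor was how much of any count comes from the overlapping gene.

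Genes near the members were also looked up among the genes tested. Counting protein-coding genes, pseudogenes and long intergenic non-coding RNAs, 20 genes lay directly before and after the 10 members. Of these, 0 were among the genes tested, where 13.05% of the places beside all tested genes held another tested gene. The choice of members left out genes with another listed target on the clone, which can lower this count. With 20 places, a count of 0 says little about the surroundings. On the 10 clones the table held 3 further genes, each on a different clone. F52D2.8 (fbxa-46), named for the F-box gene family, annotated as a pseudogene and lying 2 genes from F52D2.6, had 3.81 and 3.80 CPM in rde-12 and 40.4 and 42.4 CPM in N2. It fell 10.9-fold, with a log2 change of −3.43 ± 0.180 (SE; edgeR adjusted p = 2.24e-10), further than F52D2.6 itself, although it is not among the listed targets. F52D2.8 had only 21 and 17 counts in the rde-12 libraries, against 170 and 185 in the N2 libraries, so the size of its fall is less certain. The F-box family is large, and whether reads of F52D2.8 also match other members was not tested. C18D4.2, on the clone of C18D4.6, fell by a smaller amount, with 500 and 466 CPM in rde-12 and 631 and 585 CPM in N2 (log2 change −0.33 ± 0.0624; edgeR adjusted p = 8.27e-04). C36A4.5 (maph-1.3), 2 genes from C36A4.11, had 3762 and 3697 CPM in rde-12 and 3309 and 3494 CPM in N2 and was not called (log2 change 0.13 ± 0.0581; edgeR adjusted p = 0.103). C01A2.1, on another clone and 2 genes from W05H12.2, had 70.1 and 72.4 CPM in rde-12 and 255 and 214 CPM in N2. Its log2 change was −1.72 ± 0.0870 (SE; edgeR adjusted p = 1.49e-10), near the −1.75 of W05H12.2. Why these 2 genes changed alike was not tested.

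**Figure D4:**
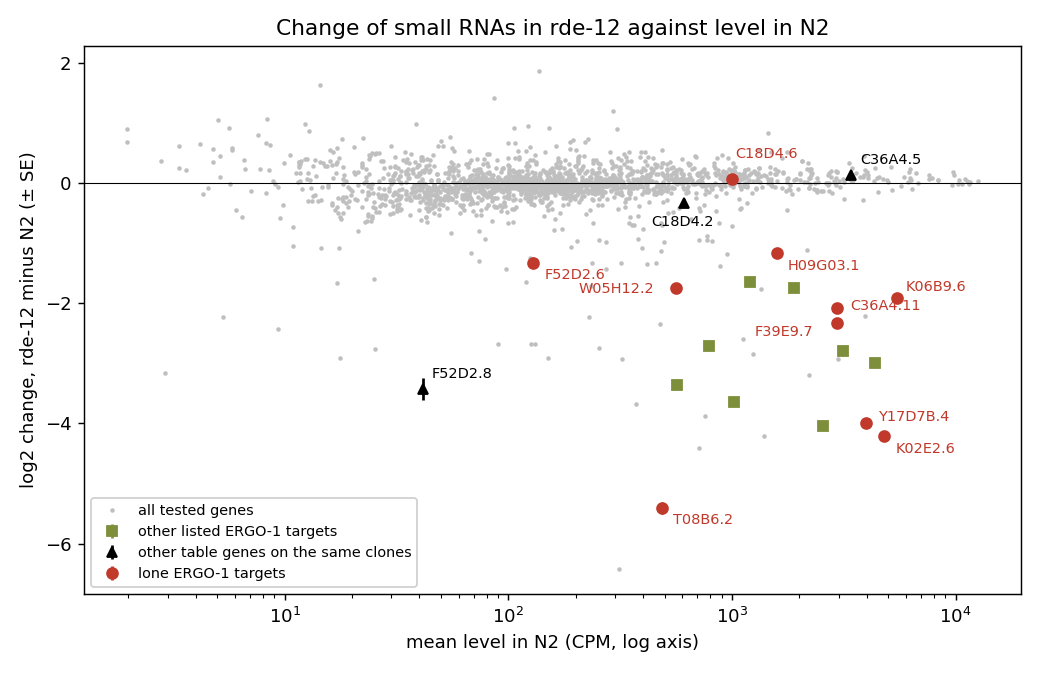
Log2 change of small RNAs (rde-12 minus N2, ± SE where marked) against the mean level in N2 (CPM, log axis) for the 10 lone targets (red circles), 8 other listed ERGO-1 targets (squares), the 3 other table genes on the same clones (triangles) and all tested genes (grey). The 10 spread from −5.41 at T08B6.2 to 0.06 at C18D4.6, and the squares lie between −4.04 and −1.64.

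The comparison list holds 8 other listed targets, which are only some of the pathway's targets: E01G4.5, E01G4.7, W04B5.1, W04B5.2, ZK402.2, ZK402.3, ZK402.5 and F55C9.3. Of these, F55C9.3 is the only listed gene used here on its clone, and the other 7 share a clone with another of the 8. Set beside them, the 10 lone genes covered a wider range. The other 8 had log2 changes between −4.04 and −1.64, with a median of −2.89, against −5.41 to 0.06 and a median of −1.999 for the 10. All 8 were called lower, against the same background of 13.9%. T08B6.2 and K02E2.6 had more negative changes than any of the 8, and F52D2.6, H09G03.1 and C18D4.6 had less negative ones. Both lists were chosen with these results known, so whether they differ was not tested.

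Genes outside the list with the most similar pattern were found by the distance of log2(CPM + 1) over the 4 libraries. Nearest to K02E2.6 were ZK380.5, with 383 and 393 CPM in rde-12 and 2904 and 3036 CPM in N2 (distance 1.30), and Y37E11B.2, with 246 and 237 CPM in rde-12 and 2234 and 2171 CPM in N2 (distance 1.60). Nearest to T08B6.2 were the cuticlin-like gene cutl-10 (Y53H1B.1; distance 1.88) and fbxa-61 (Y119D3B.8; distance 2.21). Their own log2 changes were −3.68 for cutl-10 and −6.43 for fbxa-61. Nearest to C18D4.6 were pmk-3 (F42G8.4), a p38-type MAP kinase gene, at 1042 and 1074 CPM in rde-12 and 1031 and 998 CPM in N2 (distance 0.0626), and Y20F4.8 (distance 0.0807). Their log2 changes were 0.06 and −0.02.

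Few genes of the pathway's own machinery were in the table, and none of those was called changed. Of 33 genes listed as making or carrying these small RNAs, 7 were in the table, and edgeR called 0 of them lower, against 13.9% of all genes, and 0 higher, against 13.8%. DESeq2 also called 0 in either direction, against 8.11% and 10.7% of all genes. At an unadjusted p under 0.05, edgeR again gave 0, against 20.2% and 19.4%. With 7 genes, a count of 0 says little about the machinery as a group. They were the Argonaute genes ppw-1 and sago-2, the nuclear RNA interference genes nrde-1 and nrde-4, the helicase-encoding pair eri-6 and eri-7, and ekl-1, whose Tudor-domain product works with RNA-dependent RNA polymerases. Their log2 changes ran from −0.11 at ekl-1 to 0.17 at eri-7. Those against ppw-1 stood at 2202 ± 71.4 CPM in rde-12 and 2172 ± 18.7 CPM in N2 (SD, n = 2 each). The genes for ERGO-1 and RDE-12 themselves were among the 33 listed but not among the 7 found, so the counts do not check the mutation.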

How the data were processed

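The gene table gives raw counts, per the file headers, as the authors deposited them for the 4 OP50 libraries. The submitters' processing notes name TopHat 1.4.1, SAMtools and bedtools. No source used here gives the build, annotation, strand, treatment of reads with several matches or choice of genes, and each could move counts between similar or overlapping genes. Of 1959 rows 22 repeated an earlier row of the same gene exactly, with T08B6.2 and C36A4.11 among these genes, and were counted once. Groups came from the sample titles. Counts were fitted with edgeR's quasi-likelihood test (version 4.0.16, R 4.3.3) after TMM scaling and filterByExpr, which dropped 6 genes, Benjamini-Hochberg adjusted over 1931 genes. SE is the absolute log2 change over the square root of F. DESeq2 1.42.0, other scalings, no filter, a replicate block and each library left out were tried. Fold and percent left are ratios of mean CPM. Gene features came from RefSeq and Ensembl annotations of WBcel235. The members and lists were chosen with earlier results of these data known. The other genes named are those on the members' clones and the 2 nearest in pattern to K02E2.6, T08B6.2 and C18D4.6. C01A2.1, 2 genes from W05H12.2, was added after the values were seen. A planned search for similar proteins was not run. The sel-1 region table was not used.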

Additional observations from a re-analysis of the deposited data

How the results depend on the processing

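For the 10 genes, 120 alternative log2 changes over 12 settings were computed, and 120 stayed within 1 SD between replicates of the value reported. There were 0 changes of sign among called genes and the largest shift was 0.105. Leaving out 1 of 2 replicates moves their mean by less than their SD, so the values without a library could hardly pass that limit. In each setting 9 were called lower and 0 higher. The median log2 change of the members lay between −2.06 and −1.94 when a library was left out. The replicate numbers did not pair the libraries (correlation of deviations 0.021), and with the replicate number as a block the median was −2.001, with 230 of all genes called lower and 243 higher. Over all genes the calls were 157 lower with DESeq2, and with a library left out 175 to 304 lower and 165 to 308 higher, the lowest of both without rde-12 replicate 1. With repeated rows kept, the members held 0.594% of counts in rde-12 and 2.665% in N2, since 2 of the repeats are members. TMM factors without the 18 listed targets were tried after the data were seen. With 2 libraries per genotype, the depth of the table limits T08B6.2 most among the members.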
